A study of Mus musculus with 32 samples.

Results

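The miR-17-92 cluster was measured here by its 8 mature miRNAs on both arrays: miR-17, miR-17*, miR-18a, miR-19a, miR-19b, miR-20a, miR-20a* and miR-92a. They were chosen by name, as the array rows that carry these names, and all 8 were found among the 609 mouse miRNAs of the Affymetrix array and among the 710 of the Febit array. The RNA came from 1 clone of D3 mouse ES cells (aPIG 44), stably transfected with a puromycin resistance and EGFP cassette under the cardiac alpha-MHC promoter, which every group carries. Day 0 is the undifferentiated clone, after a last passage off its feeder fibroblasts on gelatin, and days 12, 19 and 26 are Cor.At cardiomyocytes, which were formed in embryoid bodies and selected with puromycin. Each day had 2 cultures, a and b, and each of the 8 RNA samples was put on an Affymetrix and on a Febit array. For days 19 and 26 the culture text of the records does not match the longer plating given in the study's methods, and the day in the title was followed. Both platforms were deposited with VSN, a generalized log2 scale that becomes linear near the background, and with a second normalization, RMA for Affymetrix and a quantile normalization for Febit (called non-VSN here), which makes 4 data sets of 8 arrays.

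The cluster is transcribed as a single primary RNA, from which Drosha and Dicer cut the hairpins and the mature strands. It is known for promoting the cell cycle and survival in dividing cells, including cardiomyocyte progenitors, under the control of Myc and E2f factors, and mice without it die around birth with heart and lung defects. A miRNA finds its targets mainly through its seed, bases 2 to 8 from the 5′ end, so members with the same seed are counted as a family.

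All 8 members were matched to RefSeq mature miRNAs (build GRCm38.p6). The sequences are printed because the probes of the arrays are defined by them and because the families below are read from the seeds. Each runs 5′ to 3′ with the seed in capitals. Those of the miR-17 family with miR-18a are
miR-17: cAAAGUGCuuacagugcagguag
miR-20a: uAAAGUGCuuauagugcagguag
miR-18a: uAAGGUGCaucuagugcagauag
those of the miR-19 family are
miR-19a: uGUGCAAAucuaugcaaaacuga
miR-19b: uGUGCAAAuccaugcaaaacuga
the member with the seed of the miR-25 family is
miR-92a: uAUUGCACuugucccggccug
and the opposite (star) strands of the miR-17 and miR-20a hairpins are
miR-17*: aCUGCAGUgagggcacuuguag
miR-20a*: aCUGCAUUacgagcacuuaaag

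Several of these differ by very few bases. Counted from 1 at the 5′ end, miR-17 and miR-20a differ at 2 of 23 positions (C1U and C12U), and miR-19a and miR-19b at 1 of 23 (U11C). Relatives from other clusters are as close: miR-106a differs from miR-17 by U10A, and miR-20b differs from miR-20a by U1C and U10C. The mature miR-19b and miR-92a are each encoded at 2 loci, 1 in this cluster and 1 in its X-chromosomal copy, so their signal cannot be given to the cluster alone. Whether a probe also bound its near-identical relatives was not tested.

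The 6 hairpins lie on the plus strand at chr14:115043671-115044506, within 836 bases and with 35 to 96 bases between neighbours. In the RefSeq annotation the noncoding host gene Mir17hg spans chr14:115044390-115046728, which covers the whole Mir92-1 hairpin and the last 2 bases of Mir19b-1, and the other 4 hairpins lie before its annotated start. The hairpin of miR-17 is shown with both arms, miR-17 and then miR-17*, in capitals, to show that both of these members come from the same precursor (chr14:115043671-115043754).
Mir17: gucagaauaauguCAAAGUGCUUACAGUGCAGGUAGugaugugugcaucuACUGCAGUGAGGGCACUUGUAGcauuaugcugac

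Some facts of the whole series bear on the members. A list of 8 ES-cell miRNAs of the miR-290 family, all found, had a mean Affymetrix VSN value of 9.15 to 9.85 on the day 0 arrays and of 3.25 to 5.78 on the later ones. The 6 cardiac miRNAs miR-1, miR-133a, miR-133b, miR-208a, miR-208b and miR-499 had 1.58 to 1.99 at day 0 and 5.79 to 7.03 later. The pair miR-143 and miR-145, listed here for smooth muscle, was at 5.46 to 5.60 at day 0 and at 10.90 to 11.86 later. The study itself counts miR-143 as cardio-specific, so the pair does not mark smooth muscle alone. The fibroblast list was at 3.07 to 4.84 and 2.44 to 5.24, the endothelial miR-126 pair at 1.54 to 2.44 and 0.56 to 3.13, and the blood list at 1.34 to 1.79 and 1.19 to 1.90. On Febit VSN these lists stood higher at day 12 than at day 0. Fibroblast was at 7.4 to 8.2 against 7.1 to 7.2, endothelial at 6.4 to 6.9 against 5.1 to 5.8, and blood at 6.2 to 6.7 against 5.7 to 6.0. At days 19 and 26 they were at 6.1 to 6.8, 4.6 to 5.5 and 5.3 to 6.3. The part of other cell types in the members' values was not tested, and in bulk RNA fewer cells of a type and less RNA per cell cannot be told apart. Over the 485 miRNAs tested, the median Affymetrix VSN fold change was itself above 0, by 0.34 log2 at day 12, 0.22 at day 19 and 0.41 at day 26, and RMA put it at 0.01, 0.00 and 0.00. The split of calls moved with this scaling. Affymetrix VSN called 30 miRNAs lower and 127 higher at day 12, 53 and 110 at day 19 and 50 and 143 at day 26, while RMA gave 76 and 86, 89 and 87, and 99 and 96, and VSN arrays centred on their median 73 and 81, 79 and 94, and 115 and 105. Febit VSN called 41 lower and 28 higher at day 12 and 11 and 51 at day 26, Febit non-VSN 26 and 28, and 16 and 37, and centred Febit VSN arrays 22 and 26, and 11 and 47. Febit day 0 replicates were the least alike (r = 0.50 across miRNAs with VSN, against 0.81 to 0.92 on later days and 0.94 to 0.96 on Affymetrix). The raw Febit array of day 26 b had a median of 228 against 928 to 992 on the others. Of the non-VSN Febit arrays, the one titled day 12 a matched the raw array of day 19 b, and the reverse (Spearman 1 across miRNAs, against 0.20 for their own titles). They are exchanged wherever non-VSN values are given below, unless the title is named.

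miR-92a, which in this cluster carries the miR-25-type seed and is known to restrain integrin genes such as Itga5, was lower after day 0 on every array of both platforms. Its Affymetrix VSN values were 10.47 and 10.57 at day 0, 9.54 and 8.79 at day 12, 8.53 and 7.42 at day 19, and 7.39 and 8.02 at day 26. Its Febit VSN values were 10.57 and 10.08 at day 0, 6.88 and 5.62 at day 12, 6.76 and 7.60 at day 19, and 6.79 and 6.89 at day 26. The courses were not alike. The Affymetrix values stepped down from day to day, with days 19 and 26 overlapping, while the Febit values had dropped by day 12, and days 12, 19 and 26 overlapped.

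The fall of miR-92a was called against every later day in all 4 data sets except Affymetrix VSN at day 12. On Affymetrix VSN it was 5.83-fold lower at day 19 (log2 fold change -2.54 ± 0.52, SE of limma, 2 arrays a day; adjusted p = 0.00238) and 7.03-fold lower at day 26 (-2.81 ± 0.52, adjusted p = 0.000894). At day 12 the difference of -1.36 ± 0.52 did not pass the threshold (adjusted p = 0.0668), and it did when either day 19 array was left out (adjusted p = 0.0466). On Febit VSN the log2 fold change was -4.08 ± 0.66 at day 12 (adjusted p = 0.00555), -3.15 ± 0.66 at day 19 (adjusted p = 0.0152) and -3.49 ± 0.66 at day 26 (adjusted p = 0.00746). The raw signal was then at 0.93 to 1.14 times the array median, and raw values after quantile normalization gave smaller falls of -1.60, -1.49 and -1.56, all called, so the size on Febit depends on the processing. RMA and non-VSN values called it lower at all 3 later days, from -1.96 to -3.88 and from -2.44 to -2.70. The Febit call of day 19 ended without day 19 a (adjusted p = 0.226) or day 19 b (0.065), and that of day 26 without day 26 a (0.0598) or day 26 b (0.0827).

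**Figure D1:**
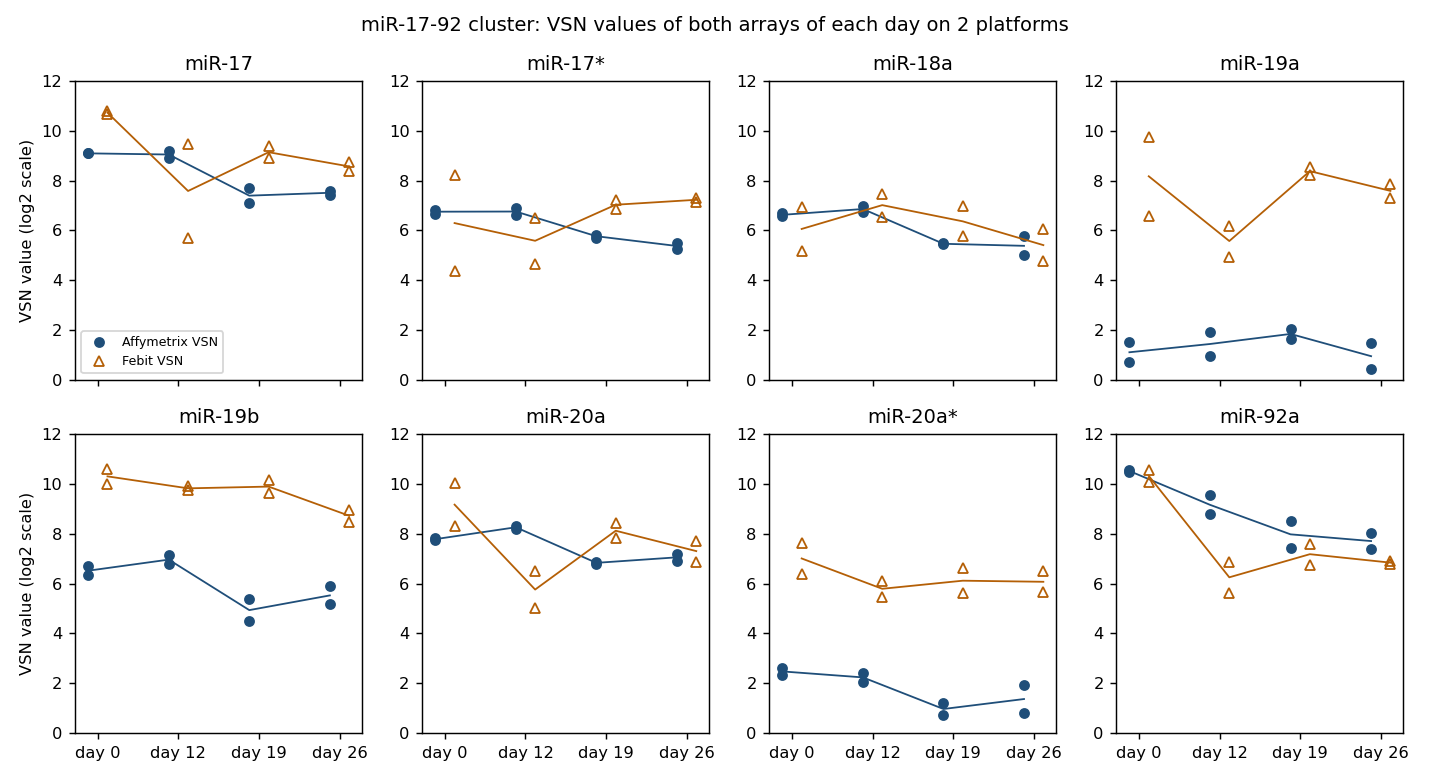
Deposited VSN values (log2 scale) of the 8 members against the day, with both arrays of each day as points (filled circles Affymetrix, open triangles Febit) and lines through the day means. miR-92a lies below its day 0 values on every later array of both platforms, miR-17 does so from day 19 on, and miR-19a stays under 2.1 on every Affymetrix array.

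miR-17 and miR-20a share a seed with which they are known to repress the cell cycle inhibitor Cdkn1a and the pro-apoptotic gene Bcl2l11. miR-17 gave Affymetrix VSN values of 9.09 and 9.10 at day 0, 9.20 and 8.90 at day 12, 7.09 and 7.70 at day 19, and 7.43 and 7.60 at day 26. Days 0 and 12 overlapped, and all 4 arrays of days 19 and 26 lay below them. It was lower by 3.25-fold at day 19 (-1.70 ± 0.44, adjusted p = 0.00989) and, at day 26, by -1.58 ± 0.44 on the log2 scale (adjusted p = 0.0123). The difference at day 12 was -0.05 ± 0.44 (adjusted p = 0.946). The call of day 19 ended without day 19 a (adjusted p = 0.088) and that of day 26 without day 26 a (0.0765).

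On Febit VSN, miR-17 was at 10.66 and 10.79 at day 0, 5.70 and 9.47 at day 12, 8.90 and 9.38 at day 19, and 8.40 and 8.74 at day 26. Here every later array was below both day 0 arrays, and the day 12 replicates lay 3.76 apart, the widest spread of this miRNA. The fold changes of -3.14 ± 1.02 at day 12, -1.59 ± 1.02 at day 19 and -2.16 ± 1.02 at day 26 did not pass the threshold (adjusted p = 0.0697, 0.415 and 0.249). Without day 12 b the first was -5.03 and was called (adjusted p = 0.00973), and without day 12 a, or without day 12 b, the last was called (0.0469). On non-VSN values the falls at days 12 and 26 were called (-2.47 and -2.46). Affymetrix RMA values called miR-17 lower at days 12, 19 and 26 (-1.67, -3.11 and -3.58).

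miR-20a gave Affymetrix VSN values of 7.74 and 7.83 at day 0, 8.31 and 8.21 at day 12, 6.78 and 6.88 at day 19, and 6.92 and 7.18 at day 26. No days overlapped, with day 12 highest and day 19 lowest. The fold changes against day 0 of 0.48 ± 0.42, -0.95 ± 0.42 and -0.73 ± 0.42 did not pass the threshold (adjusted p = 0.466, 0.1 and 0.19). On Febit VSN it was at 8.32 and 10.02 at day 0, 6.50 and 5.02 at day 12, 7.82 and 8.42 at day 19, and 6.88 and 7.72 at day 26. There day 12 was the lowest day (-3.41 ± 0.79 against day 0, adjusted p = 0.0229), with the raw signal at or below the array median, and raw values after quantile normalization gave -1.39, also called. This call held in 1 of the 8 fits with an array left out, the one without day 0 a (log2 fold changes of -4.26 to -2.56, highest adjusted p 0.126). The differences of -1.05 ± 0.79 at day 19 and -1.87 ± 0.79 at day 26 did not pass (adjusted p = 0.480 and 0.182). RMA and non-VSN values called miR-20a lower at every later day, from -1.13 to -2.62 and from -1.52 to -2.48.

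miR-18a, whose seed differs from that of miR-17 by A4G, gave Affymetrix VSN values of 6.57 and 6.68 at day 0, 6.97 and 6.75 at day 12, 5.43 and 5.49 at day 19, and 5.00 and 5.76 at day 26. The day 12 arrays lay just above day 0, and the later arrays below both. The fall passed the threshold at day 26 (-1.24 ± 0.44, adjusted p = 0.0436), where it held in 1 of the 8 fits with an array left out, the one without day 26 b (highest adjusted p 0.284), and not at day 19 (-1.16 ± 0.44, adjusted p = 0.0636). Its Febit VSN values of 5.16 and 6.95 at day 0 lay within the range of later days, which ran from 4.76 to 7.47, and no fold change was called (0.96, 0.31 and -0.65, each ± 0.82).

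The miR-19 family was split by detection. miR-19b gave Affymetrix VSN values of 6.33 and 6.70 at day 0, 7.16 and 6.77 at day 12, 5.37 and 4.50 at day 19, and 5.88 and 5.16 at day 26. Day 12 lay above and days 19 and 26 below day 0 without overlap. The fall at day 19 was called (-1.58 ± 0.49, adjusted p = 0.0266), and the call ended without day 0 a (0.0554), day 0 b (0.12) or day 19 b (0.174). At day 26 the difference was -0.99 ± 0.49 (adjusted p = 0.132). On Febit VSN it ran from 10.61 and 10.00 at day 0 to 9.74 and 9.91 at day 12, 9.63 and 10.15 at day 19 and 8.49 and 8.96 at day 26. Day 12 was just below day 0, day 19 overlapped it and day 26 was below all other days. The fold changes of -0.48, -0.41 and -1.58 (each ± 0.60) did not pass (adjusted p = 0.667, 0.734 and 0.133).

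miR-19a, which differs from miR-19b by a single base, was at 0.42 to 2.05 on all 8 Affymetrix VSN arrays. Its day 19 arrays (1.63 and 2.05) lay above those of day 0 (0.70 and 1.51) and day 26 (1.48 and 0.42), and day 12 overlapped every other day. With RMA it was at 3.74 to 4.16, below the RMA array medians of 4.41 to 4.71. No change of it was called on that platform, and a fall was not detectable at this signal. On Febit VSN it was at 6.58 and 9.77 at day 0, 4.95 and 6.20 at day 12, 8.22 and 8.54 at day 19, and 7.86 and 7.32 at day 26. The 2 arrays of day 0 were 3.18 apart and enclosed those of days 19 and 26. Its day 12 fold change of -2.60 ± 0.96 was not called (adjusted p = 0.108), and without day 0 a it was -4.19 and called (adjusted p = 0.00627).

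miR-17*, the strand opposite miR-17, gave Affymetrix VSN values of 6.68 and 6.83 at day 0, 6.90 and 6.62 at day 12, 5.70 and 5.83 at day 19, and 5.27 and 5.48 at day 26. Days 0 and 12 overlapped, and days 19 and 26 lay below them in that order. The fall was called at day 26 (-1.38 ± 0.42, adjusted p = 0.0201), with the call ending without day 0 b or either day 26 array (highest adjusted p 0.115), and at day 19 the difference was -0.99 ± 0.42 (adjusted p = 0.0912). The Febit VSN values were 4.35 and 8.23 at day 0, 4.66 and 6.51 at day 12, 6.84 and 7.22 at day 19, and 7.14 and 7.32 at day 26. The day 0 replicates were 3.88 apart and enclosed every other array, and the fold changes of -0.71, 0.74 and 0.94 (each ± 1.12) were not called. Without day 0 b the last was 2.88 and was called as higher (adjusted p = 0.047). miR-20a* was dim on Affymetrix VSN, at 2.61 and 2.33 at day 0, 2.43 and 2.03 at day 12, 0.71 and 1.21 at day 19, and 1.90 and 0.82 at day 26. Its difference at day 19 was called (-1.51 ± 0.49, adjusted p = 0.0333), and the call ended without either day 0 array or day 19 a (highest adjusted p 0.155). Near the background of a VSN scale the difference is no plain ratio, and with RMA it was -0.41 ± 0.17 and not called. Its Febit VSN values of 5.48 to 7.62 lay lower at day 12 than at day 0 without overlap, and days 12, 19 and 26 overlapped.

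The counts of members are read against the share of all 485 tested miRNAs called by the same rule. At day 12 against day 0, Affymetrix VSN called none of the 8 members in limma with Benjamini-Hochberg adjustment (32.4% of all miRNAs were called, 6.19% as lower), with 1 member at an unadjusted p under 0.05. Affymetrix RMA called 6 lower, all but miR-19a and miR-20a* (15.7% of all were called lower), Febit VSN 2 (miR-20a and miR-92a, 8.45% lower), and Febit non-VSN 3, with miR-17 added (5.36% lower). At day 19 Affymetrix VSN called 4 lower (miR-17, miR-19b, miR-20a* and miR-92a, 10.9%), RMA 6 (18.4%), Febit VSN 1 (miR-92a, 2.47%) and Febit non-VSN 2 (miR-20a and miR-92a, 3.3%). At day 26 the counts were 4 (miR-17, miR-17*, miR-18a and miR-92a, 10.3%), 6 (20.4%), 1 (miR-92a, 2.27%) and 4 (miR-17, miR-19b, miR-20a and miR-92a, 3.3%). With Affymetrix VSN arrays centred on their median, 1, 7 and 7 members were called lower at the 3 days (15.1%, 16.3% and 23.7% of all). Non-VSN values by title called 2, 3 and 4 (1.86%, 2.27% and 2.47%), and raw Febit intensities after quantile normalization 3, 2 and 3 (3.3%, 2.68% and 2.68%). No member was called higher in any of these comparisons. The median log2 fold change of the 8 members on Affymetrix VSN was 0.12 at day 12, -1.34 at day 19 and -1.18 at day 26, beside 0.34, 0.22 and 0.41 over all miRNAs. On Febit VSN it was -1.91, -0.65 and -1.26, beside -0.02, 0.06 and 0.02. The 3 comparisons share their day 0 arrays.

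**Figure D2:**
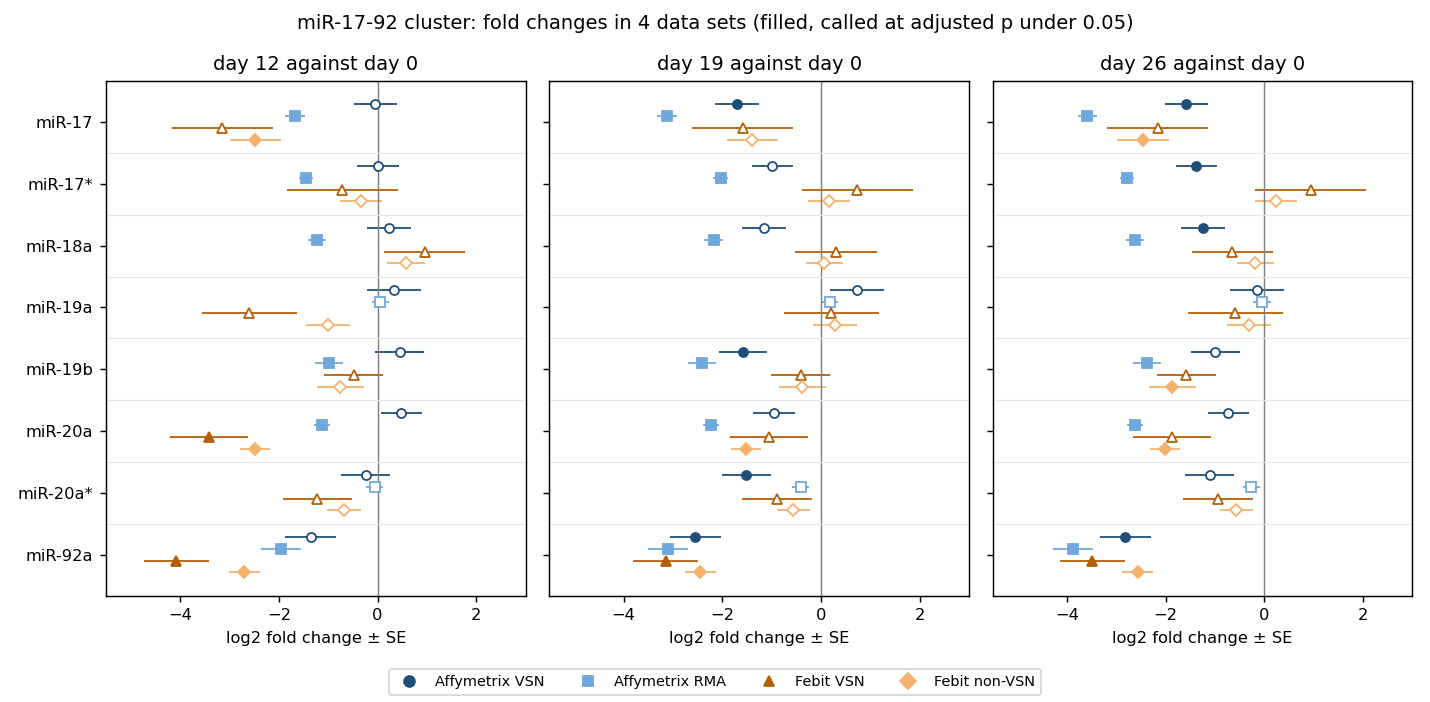
Log2 fold change ± SE (limma, 8 arrays per data set) of each member against day 0 at days 12, 19 and 26 in the 4 data sets, with filled symbols called at an adjusted p under 0.05 and the Febit non-VSN arrays of day 12 a and day 19 b exchanged. miR-92a is filled everywhere except for Affymetrix VSN at day 12, and at day 12 the SE bars of the 2 Affymetrix normalizations do not overlap for 5 members.

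Counted without a model, both arrays of a later day were below both day 0 arrays in all 4 data sets for miR-92a at day 12 (1 member of 8, where 6.8% of all miRNAs did so), for miR-17 and miR-92a at day 19 (2 members, 9.69%), and for miR-17, miR-19b, miR-20a and miR-92a at day 26 (4 members, 8.87%). The 4 data sets hold the same 8 RNA samples, so they are not independent.

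At day 12 the data sets disagreed, both between platforms and between normalizations. In the test of the difference between platforms on the same RNA, 3 members had a day 12 fold change that was higher on Affymetrix VSN than on Febit VSN (16.1% of all miRNAs were called in that direction). miR-20a stood at 0.48 on Affymetrix, which was not called, and at -3.41 on Febit, a difference of 3.89 ± 0.90 (adjusted p = 0.00739). miR-19a differed by 2.93 (adjusted p = 0.0494) and miR-92a by 2.72 ± 0.90 (adjusted p = 0.0445). With 1 array left out, the first held in 7 of 8 fits, the second in 2 and the last in 0, and miR-17 was called as well without day 12 b (5.13, adjusted p = 0.00585). At days 19 and 26 no member was called different between the platforms (0 of 8 in limma, with 0 at an unadjusted p under 0.05 on either day, where 7.84% and 9.28% of all miRNAs were called). Without day 0 b, miR-17* was called at day 26 (-4.18, adjusted p = 0.0253). With RMA and non-VSN values 2 members differed at day 12, miR-18a by -1.80 and miR-20a by 1.35 (20.4% of all called). miR-17* and miR-18a did at days 19 and 26, both lower on Affymetrix (10.7% and 12.2% of all called in that direction).

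With RMA in place of VSN the Affymetrix fold changes at day 12 were lower by a median of 1.44 log2 over the members. This turned those of miR-17*, miR-18a, miR-19b and miR-20a from slightly above 0 to -1.45 ± 0.14, -1.23 ± 0.19, -0.99 ± 0.28 and -1.13 ± 0.16, all called (adjusted p = 0.000492, 0.00304, 0.0356 and 0.00245). With VSN arrays centred on their median the same 4 were at -0.76, -0.53, -0.32 and -0.29, and none of them was called. The same shift was -1.40 over the 100 miRNAs with a log2 RMA value above 7 at day 0, and -0.64 over all miRNAs tested. This comparison was added after the values had been seen. The day 0 RMA values that picked the 100 also enter the shift, so part of the -1.40 can come from that choice. Which normalization is nearer to the amounts in the cells was not tested. On the RMA scale miR-17, miR-17*, miR-18a, miR-20a and miR-92a were ordered by day, with day 0 above day 12, day 12 above day 19 and day 19 above day 26 and no overlap between neighbours. For miR-17 these values were 10.99 and 10.67, 9.19 and 9.13, 7.49 and 7.94, and 7.26 and 7.23, and for miR-92a 11.33 and 11.29, 9.70 and 9.00, 8.77 and 7.65, and 7.23 and 7.63.

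Between day 26 and day 12, Affymetrix VSN called no member (4.12% of all miRNAs called). All 8 fold changes lay below 0, from -1.54 to -0.49, with a median of -1.41 beside -0.03 over all miRNAs. In limma 6 members had an unadjusted p under 0.05. The share of all miRNAs under that threshold is not given here, so this count has no background to be read against. RMA called 6 lower (4.33% of all), from -1.92 for miR-92a to -1.34 for miR-17*. On Febit VSN the same comparison gave 6 members above 0 and 2 below, from -1.61 for miR-18a to 2.01 for miR-19a, none called and none at an unadjusted p under 0.05 (10.1% of all called). The difference between the platforms in this comparison, tested after the values had been seen, was called for no member (2.68% of all). Its median was -2.27 over the members, beside -0.38 over all miRNAs. In limma 5 members had an unadjusted p under 0.05, again without the share of all miRNAs.

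The raw Febit signals show how far the members stood out on that array. At day 0 miR-17 gave 1989 and 2785, which is 2.07 and 2.99 times the median of all miRNAs on the array, and later 0.96 to 2.18 times. Its highest later ratio was that of day 26 b. miR-92a gave 1917 and 2033 at day 0 (2.00 and 2.18 times) and lay at 0.93 to 1.14 times on all 6 later arrays, at the level of the bulk of miRNAs. miR-19b lay at 1.39 to 2.40 times over all arrays, with the lowest on day 26 a and the highest on day 26 b. miR-20a was at 1.15 and 2.13 times at day 0 and at the median or below at day 12, where the lower array had 0.89 times. miR-17*, miR-18a and miR-20a* were within 0.85 to 1.28 times on all 8 arrays, which left little room to see a fall of these 3 on Febit. The study's present-call list names miR-17* and miR-18a as present at least once on both platforms, and miR-20a* on Affymetrix only. Among all miRNAs, 4.23% and 9.58% exceeded 2 times the median on the day 0 arrays, and 19.4% did on day 26 b, the array with the lower median.

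**Figure D3:**
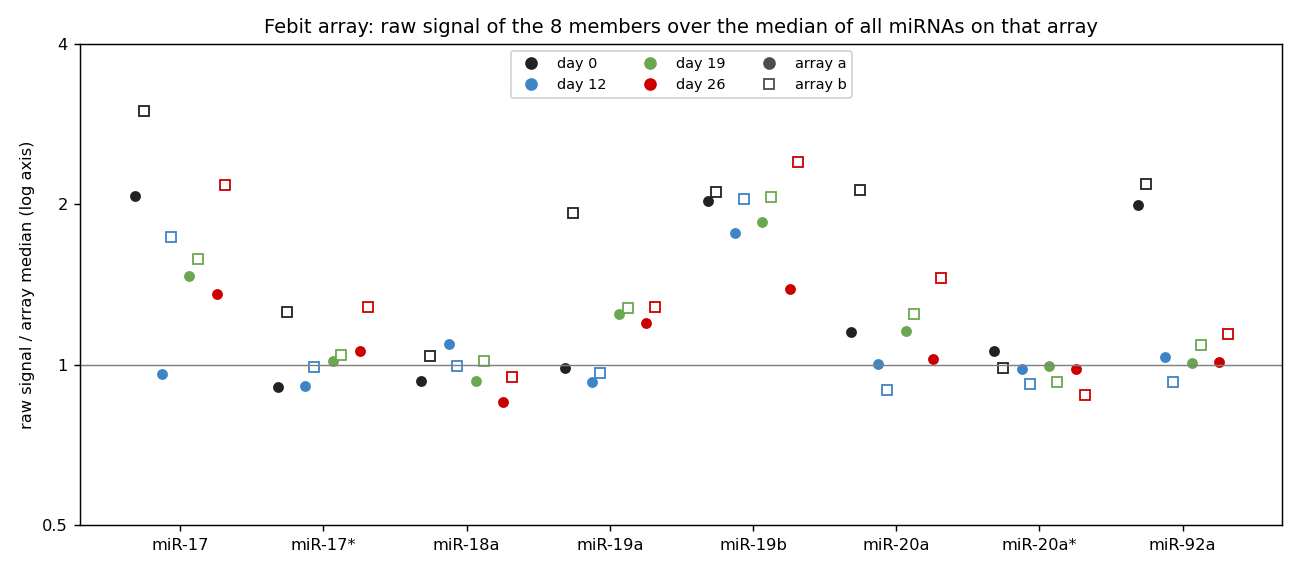
Raw Febit signal of each member divided by the median of all miRNAs on the same array (log axis), for arrays a (filled circles) and b (open squares) of days 0, 12, 19 and 26. miR-92a is at 2.00 and 2.18 at day 0 and at 0.93 to 1.14 on later arrays, and miR-17*, miR-18a and miR-20a* stay within 0.85 to 1.28 throughout.

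Along the cluster, the Affymetrix VSN fold changes at day 26 neither rose nor fell steadily in the order of the hairpins. Differences between members were not tested. At day 26 the first and the last hairpin, 756 bases apart at their starts, gave fold changes of -1.58 for miR-17 and -2.81 for miR-92a on Affymetrix VSN, and the hairpins between them gave -1.24 for miR-18a, -0.16 for the dim miR-19a, -0.73 for miR-20a and -0.99 for miR-19b. Across the 8 arrays of a data set, the 28 pairs of members had a median correlation of 0.79 on Affymetrix VSN (from -0.17 to 0.96, 23 above 0), 0.92 on RMA and 0.33 on Febit VSN (from -0.58 to 0.82, 20 above 0). The 5 pairs below 0 on Affymetrix VSN all held miR-19a. Arrays of a pair share the sample and its scaling, so these are descriptions.

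**Figure D4:**
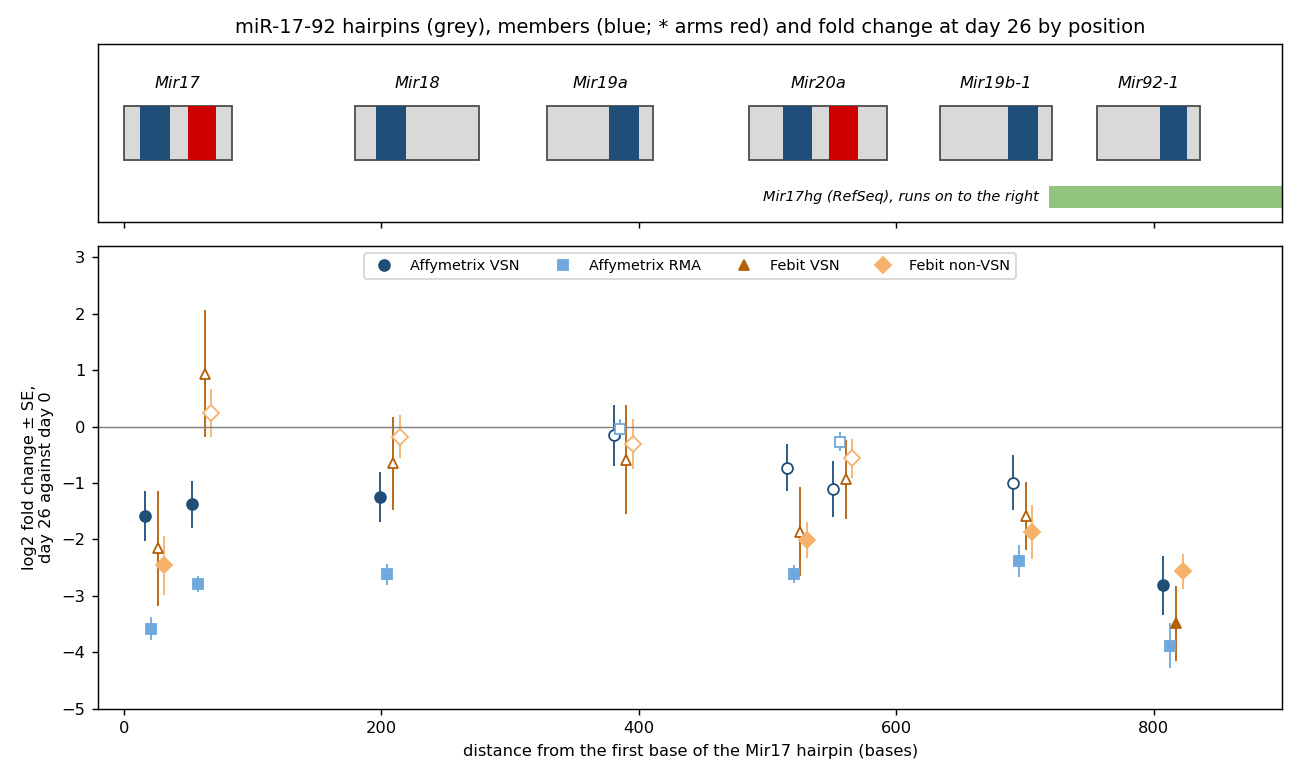
Upper panel, the 6 hairpins of the cluster (grey) with the members (blue, star strands red) by distance in bases from the start of the Mir17 hairpin, and the start of the annotated Mir17hg. Lower panel, log2 fold change ± SE of each member at day 26 against day 0 at its position in the 4 data sets (filled, called; Febit non-VSN arrays exchanged), from -3.88 for miR-92a with RMA to 0.94 for miR-17* with Febit VSN.

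Of 13 relatives, the other strands of the cluster and the members of its copies on chromosome X (miR-106a to miR-363) and chromosome 5 (miR-106b to miR-25), 12 were tested and miR-19a* was not. Affymetrix VSN called 3, 6 and 7 of them lower at days 12, 19 and 26 (6.19%, 10.9% and 10.3% of all miRNAs were called lower), and RMA 8, 10 and 11 (15.7%, 18.4% and 20.4%). Febit VSN called 3, 0 and 3 lower (8.45%, 2.47% and 2.27%) and Febit non-VSN 2, 1 and 2 (5.36%, 3.3% and 3.3%). None was called higher against day 0. With VSN values, those called on both platforms in the same comparison were miR-106a, miR-20b and miR-363 from the X-chromosomal copy. miR-93*, from chromosome 5, was called at day 12 on Affymetrix RMA (-1.28) and Febit VSN (-2.32), and stood at -0.66 on Affymetrix VSN, which was not called. The study's present-call list names miR-93* as present on Affymetrix only. Its Febit VSN values at day 0, 7.35 and 7.11, lay near the medians of the tested miRNAs on those arrays, 6.94 and 6.60. miR-20b, with the seed of miR-17, gave Affymetrix VSN values of 9.22 and 8.77 at day 0, 7.12 and 6.25 at day 12, 4.41 and 4.42 at day 19, and 4.39 and 4.50 at day 26, without overlap up to day 19. Its fall of -2.31 at day 12 and -4.55 at day 26 on Affymetrix was also called on Febit VSN, at -4.02 and -2.25. miR-106a fell on both, with log2 fold changes of -1.43 (Affymetrix VSN) and -4.22 (Febit VSN) at day 12, and of -2.81 and -2.78 at day 26. miR-363, with the seed of miR-92a, fell at day 26, by -2.71 on Affymetrix and -2.36 on Febit. Its Febit VSN values at day 0, 7.54 and 6.28, lay around the medians of the tested miRNAs, 6.94 and 6.60. The Febit fall of miR-363 thus started at the level of the bulk of miRNAs. The members of the chromosome 14 cluster with those seeds, miR-17, miR-20a and miR-92a, stood at -1.58, -0.73 and -2.81 at day 26 on Affymetrix VSN, and these differences between relatives were not tested.

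By pattern, the 5 miRNAs outside the members whose Affymetrix VSN values correlated best with the mean profile of the cluster over the 8 arrays were miR-106b* (0.93), miR-20b (0.87), miR-106a (0.86), miR-93 (0.85) and miR-433 (0.85). The first 4 come from the 2 paralogous clusters. Over the 8 Febit VSN arrays the same 5 had correlations of 0.09, 0.87, 0.90, 0.38 and 0.63, so that miR-20b and miR-106a were close to the cluster on both platforms. The mean profile itself, with each member scaled to mean 0 and SD 1, was 0.57 and 0.82 at day 0, 1.06 and 0.50 at day 12 and -0.88 to -0.65 at days 19 and 26 on Affymetrix VSN, and 0.40 and 1.05, -0.64 and -0.48, and -0.45 to 0.33 on Febit VSN.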

How the data were processed

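Per the labels and the study's methods, the authors deposited log2 values for both arrays. Affymetrix values were summarized and normalized by the authors with RMA or VSN, and Febit values are medians of 8 features per miRNA after background correction and quantile normalization or VSN. The deposited raw Febit intensity values hold the features without that correction. Tested were the 485 of 608 miRNAs common to both arrays that the study's present-call list names at least once. For each data set a linear model with 4 day means was fitted to its 8 arrays (4 residual degrees of freedom before moderation) in limma (3.58.1, R 4.3.3), and p-values, all two-sided, were adjusted by Benjamini-Hochberg over the 485 miRNAs. A miRNA was called at an adjusted p under 0.05. Platforms were compared by the same fit on Affymetrix VSN minus Febit VSN of each RNA. The fit was tested on simulated data. No column was left unmapped. Duplicates were called biological by the study, and the number of arrays limits the precision. All 8 members are named. Relatives are named where both platforms called them in a comparison with day 0, and the 5 most alike by correlation. The members and lists were chosen with earlier results of these data known. Sequences and positions are from RefSeq (GRCm38.p6). Tables and plots were made in Python 3.11.15.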

Additional observations from a re-analysis of the deposited data

Results flagged for a closer look

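The platforms gave different day 12 changes for 3 members in the direct test on the same RNA. Affymetrix VSN minus Febit VSN was 3.89 log2 for miR-20a, 2.93 for miR-19a and 2.72 for miR-92a. The difference held in 7 of 8 fits with an array left out for miR-20a (without day 12 b the adjusted p was 0.0621), in 2 of 8 for miR-19a and in 0 of 8 for miR-92a (highest adjusted p 0.165). miR-19a was near the background on Affymetrix, with VSN values under 2.1 on all arrays. With RMA minus Febit non-VSN the differences were 1.35 for miR-20a, which was called, and 1.07 and 0.74 for miR-19a and miR-92a, which were not. Their cause was not tested. With 2 arrays a day no single array could be assessed as an outlier.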

How the results depend on the processing

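Counts of members called moved as follows. With RMA, Affymetrix called 6 at day 12 in place of 0 and 6 in place of 0 for day 26 against day 12, and the changes of miR-17*, miR-18a, miR-19b and miR-20a at day 12 went to -1.45, -1.23, -0.99 and -1.13. With arrays centred on their median, Affymetrix VSN called 1, 7 and 7 at days 12, 19 and 26 in place of 0, 4 and 4. On Febit, where VSN called 1 at day 19 and 1 at day 26, non-VSN values called 3 and 4 by title, 2 and 4 with both arrays exchanged, and raw intensities after quantile normalization 2 and 3. RMA minus non-VSN called 2 platform differences at day 19, 2 at day 26 and 1 for day 26 against day 12, in place of 0. The cause was not tested. Leaving out 1 array gave 0 to 1, 2 to 4 and 1 to 3 calls on Affymetrix VSN at days 12, 19 and 26, and 0 for day 26 against day 12. It gave 1 to 3, 0 to 1 and 0 to 2 on Febit VSN, and 0 to 1 for day 26 against day 12. For the platform difference it gave 1 to 2, 0 and 0 to 1, and 0 to 2 for day 26 against day 12. A fit with 1 array removed has fewer residual degrees of freedom, and the array left in a day is assumed to vary like the others. The labels do not say whether cultures of the same letter, a or b, belong together across days. Between days, the a minus b differences correlated at -0.03 to 0.35 on Affymetrix VSN and -0.14 to 0.09 on Febit VSN. The range was -0.07 to 0.53 on Affymetrix RMA and -0.08 to 0.14 on Febit non-VSN. Both Affymetrix maxima, 0.35 and 0.53, were between days 12 and 19. With the letter as a replicate block Affymetrix VSN called 0, 4, 4 and 0 and Febit VSN 2, 1, 1 and 0, as without it. The same block on RMA called 6, 6, 6 and 6 and on Febit non-VSN 3, 2, 4 and 0, also as without it, in fits added after the data were seen. Without a filter on dim miRNAs Affymetrix VSN called 3 at day 26. Signals near the background limit miR-19a and miR-20a* on Affymetrix and miR-17*, miR-18a and miR-20a* on Febit.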
